A study of Mus musculus with 53 samples.

Results

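Mouse embryonic fibroblasts labelled as a knockout of Anp32e (KO) were compared with wild-type (WT) fibroblasts after both had received an siRNA against the histone variant H2A.Z. The comparison used 6 of the 53 samples of the series, 3 KO and 3 WT libraries. It covered the 12668 of 43432 listed genes that reached 1 RPKM, a read count scaled to gene length and library total, in at least 3 of the 12 libraries of the siRNA table. The KO and WT libraries that had received a control siRNA labelled NT, 3 of each, served to show the genotype difference at normal H2A.Z transcript levels. They share no library with the comparison under H2AZ siRNA. Total RNA was sequenced from paired ends with a stranded kit. The totals to which RPKM was scaled, solved from the steps between values, came to 31928320 to 47172427 reads in the 12 libraries. They need not equal the reads sequenced. At these totals 1 read in a gene of 1 kb was worth 0.0212 to 0.0313 RPKM.

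The 4 groups were KO with H2AZ siRNA, WT with H2AZ siRNA, KO with NT siRNA and WT with NT siRNA. The knockout allele, the origin of the fibroblasts, the siRNA sequences and the hours of treatment were not given in the sources used here. The WT libraries and the KO libraries with NT siRNA are labelled as biological replicates, and the KO libraries with H2AZ siRNA only as replicates. Nothing says that they came from separate cultures or embryos, so the p-values measure the spread between these samples, which may be technical. Within a group, libraries correlated at 0.9938 to 0.9963 across genes on the log2 scale, where genes are not independent replicates. On the first 2 principal components, WT NT replicate 1 and KO NT replicate 1 lay apart from the other libraries of their groups. The first component held 73.3% of the variance and separated the genotypes, and the second held 11.1% and separated the siRNAs.

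H2A.Z replaces H2A in nucleosomes around transcription start sites and is encoded in mouse by H2afz and H2afv. The SRCAP and TIP60 remodelling complexes place it there, and the chaperone ANP32E takes it out again, so that cells without ANP32E are known to carry more of it at promoters and enhancers. The comparison under H2AZ siRNA asks what remains of the difference between KO and WT cells once H2A.Z transcripts are low. Protein and chromatin occupancy were not measured by these libraries.

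The leading genes of the comparison set the scene for this question, since H2A.Z sits at promoters. The 250 bases before the start of the first 2 higher and the first 2 lower named genes that have exactly 1 entry in the RefSeq promoter table (GRCm38.p6) are shown 5′ to 3′ on the gene's strand, with each CG in capitals. Upk3b (chr5:136038246-136038495, plus strand) and Igfbp6 (chr15:102143936-102144185, plus strand) were higher in KO cells. Gjb2 (chr14:57104703-57104952, minus strand) and Plac9a (chr14:25902894-25903143, minus strand) were lower in KO cells.
Upk3b: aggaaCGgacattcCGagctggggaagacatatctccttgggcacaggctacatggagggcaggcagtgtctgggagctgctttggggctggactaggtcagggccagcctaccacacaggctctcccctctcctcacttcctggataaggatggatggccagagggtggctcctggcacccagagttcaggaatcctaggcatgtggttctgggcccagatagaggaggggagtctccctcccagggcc
Igfbp6: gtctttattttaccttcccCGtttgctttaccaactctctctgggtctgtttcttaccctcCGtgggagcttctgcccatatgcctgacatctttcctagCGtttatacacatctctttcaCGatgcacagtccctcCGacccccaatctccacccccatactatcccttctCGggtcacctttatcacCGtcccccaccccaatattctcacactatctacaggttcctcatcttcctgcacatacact
Gjb2: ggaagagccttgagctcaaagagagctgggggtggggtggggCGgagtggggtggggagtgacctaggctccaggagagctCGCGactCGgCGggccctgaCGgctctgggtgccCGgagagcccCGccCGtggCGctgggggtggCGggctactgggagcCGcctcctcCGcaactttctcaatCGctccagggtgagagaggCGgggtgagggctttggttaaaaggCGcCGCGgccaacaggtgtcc
Plac9a: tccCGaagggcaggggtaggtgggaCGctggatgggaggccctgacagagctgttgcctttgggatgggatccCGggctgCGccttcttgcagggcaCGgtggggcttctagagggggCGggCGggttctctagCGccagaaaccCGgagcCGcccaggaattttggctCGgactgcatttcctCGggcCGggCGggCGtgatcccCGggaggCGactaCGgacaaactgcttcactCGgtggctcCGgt
The Upk3b window holds 2 CG and the Igfbp6 window 7, while the Gjb2 window holds 18 and the Plac9a window 20. Among all 32851 entries of the table, 29% hold 2 CG or fewer and 57% hold 7 or fewer. At least 18 were present in 21.7% of the entries and at least 20 in 17.9%, and the median was 6. CG reads the same on both strands, and 4 windows describe these genes only.

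H2afz, the main H2A.Z gene (ENSMUSG00000037894, chr3:137864487-137866922), kept more transcript in KO than in WT cells after H2AZ siRNA. It had 26.9, 26.4 and 30.4 RPKM in KO cells with H2AZ siRNA, against 17.5, 16.6 and 17.4 RPKM in WT cells with H2AZ siRNA. With NT siRNA it had 199, 198 and 184 RPKM in KO cells, against 203, 199 and 203 RPKM in WT cells. The genotypes did not overlap under H2AZ siRNA, and every library with H2AZ siRNA lay far below every library with NT siRNA. The siRNA left 14.4% of the NT level in KO cells and 8.53% in WT cells. On the log2(RPKM + 1) scale, which all log2 values here share, the genotype difference under H2AZ siRNA was 0.67 ± 0.05 (SE, limma, adjusted p = 1.5e-06). Under NT siRNA it was -0.06 (limma, adjusted p = 0.3767). The change between these 2 differences was 0.72, with a 95% interval of 0.56 to 0.89 (limma, adjusted p = 0.0122).

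H2afv, the second H2A.Z gene (ENSMUSG00000041126), had 2.46, 2.65 and 3.93 RPKM in KO cells with H2AZ siRNA, against 1.63, 1.45 and 1.63 RPKM in WT cells with H2AZ siRNA. With NT siRNA it had 21.7, 22.1 and 23.7 RPKM in KO cells, against 19.03, 15.5 and 17.1 RPKM in WT cells. It was higher in KO cells under H2AZ siRNA by 0.63 ± 0.12 (log2, SE, limma, adjusted p = 6.3e-04), with no overlap of the groups. The NT siRNA difference was 0.37 (limma, adjusted p = 0.0144), a call that was lost without KO NT replicate 3 (adjusted p = 0.0504) or WT NT replicate 2 (adjusted p = 0.06). The change of its genotype difference was 0.25, with a 95% interval of -0.11 to 0.61, and was not called (limma, adjusted p = 0.7009). Summed over both genes, H2A.Z transcripts came to 29.1 to 34.4 RPKM in KO cells and 18.1 to 19.1 RPKM in WT cells with H2AZ siRNA, so the genotypes were not compared at equal H2A.Z transcript levels.

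Gm8203, listed as a pseudogene in RefSeq, followed H2afz closely, with 31.4, 31.1 and 34.1 RPKM in KO cells against 18.3, 18.2 and 21.6 RPKM in WT cells with H2AZ siRNA. Whether its reads come from H2afz was not tested, and how multi-mapping reads were counted is not given in the sources used. Its change of 0.71 was not called (limma, adjusted p = 0.0522), but it was called with the filter at 5 RPKM, in limma-voom on recovered reads, after median centring, with structural RNAs out of the total and without WT H2AZ replicate 3.

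Anp32e itself (ENSMUSG00000015749, chr3:95929245-95947387) had 6.12, 4.36 and 5.64 RPKM in KO cells with H2AZ siRNA, against 18.7, 16.9 and 19.6 RPKM in WT cells with H2AZ siRNA. The groups did not overlap, and the KO level was 0.292 times the WT level, so part of the transcript was still read in KO cells. The difference of -1.61 ± 0.11 (log2, SE, limma, adjusted p = 3.1e-07) was close to the -1.74 under NT siRNA, and its change of 0.13 had a 95% interval of -0.20 to 0.47.

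The genotypes also differed in sex-linked transcripts. Xist, the RNA of the inactive X chromosome, had 0.00133, 0 and 0.00118 RPKM in KO cells, against 5.54, 4.12 and 5.25 RPKM in WT cells with H2AZ siRNA. Ddx3y, a Y-linked RNA helicase gene, had 4.63, 4.65 and 5.93 RPKM in KO cells and no read in the 3 WT libraries. KO libraries thus carried Y-linked transcripts and WT libraries Xist. Of 6 tested genes placed on the Y chromosome, 4 were higher and 2 lower in KO cells under H2AZ siRNA. Sex or origin of the cells and loss of Anp32e cannot be told apart in any difference reported here.

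**Figure D1:**
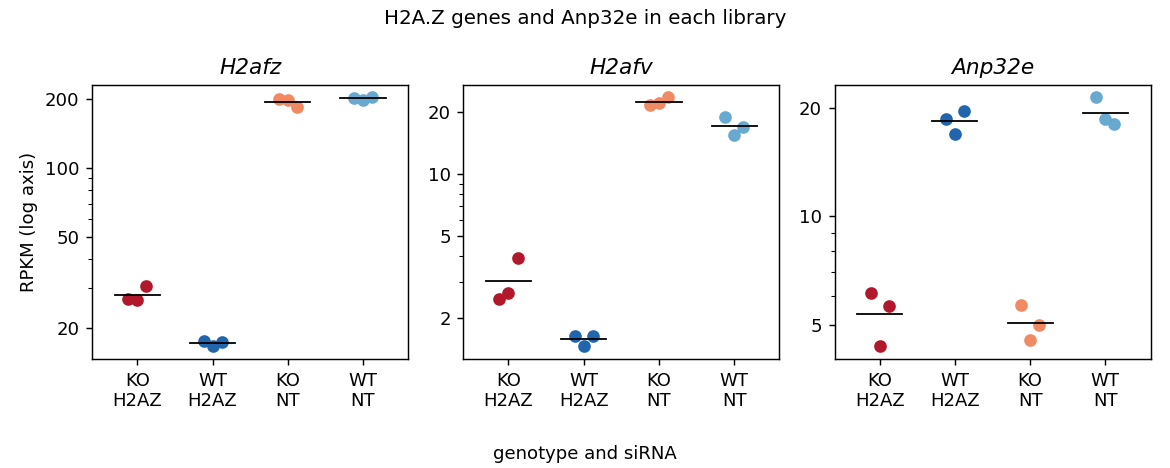
RPKM of H2afz, H2afv and Anp32e in each library, on log axes, with KO left of WT within each siRNA. Points are the 3 libraries of a group and lines their mean. H2afz lies at 26.4 to 30.4 RPKM in KO cells and at 16.6 to 17.5 RPKM in WT cells with H2AZ siRNA, and Anp32e is below every WT library in all KO libraries.

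Under H2AZ siRNA, 7972 of the 12668 genes tested (62.9%) differed between KO and WT cells in limma at an adjusted p under 0.05. Of these, 2563 (20.2%) were higher and 5409 (42.7%) lower in KO cells, and the median over all genes was -0.121 (log2). The 7SL RNAs, the RNA part of the signal recognition particle, took 19.61 to 21.6% of reads in KO cells and 14.25 to 16.34% in WT cells with H2AZ siRNA, and are part of the total to which RPKM is scaled. After each library was centred on its median gene, 4037 genes (31.9%) were higher and 3924 (31.0%) lower. With the structural RNAs left out of the total, 3701 (29.2%) were higher and 4205 (33.2%) lower. Differences of at least 2-fold were fewer, with 230 genes higher (1.82%) and 351 lower (2.77%). Here and below, 2-fold and 1.5-fold refer to RPKM + 1, so in genes of low RPKM they understate the fold of the RPKM itself. All 3 KO libraries lay above all 3 WT libraries for 2911 genes (23.0%) and below them for 5951 (47.0%).

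Most of the genotype difference was the same in direction with and without H2AZ siRNA. Under NT siRNA, 8126 genes (64.1%) were called, 3004 higher (23.7%) and 5122 lower (40.4%) in KO cells. Of the genes called under H2AZ siRNA, 86.2% were called in the same direction under NT siRNA, and of those called under NT siRNA, 84.6% in the same direction under H2AZ siRNA. These were 6873 genes, 2289 higher and 4584 lower in KO cells in both conditions. Among the 635 genes with a called difference of at least 2-fold under NT siRNA, 256 higher (2.02%) and 379 lower (2.99%), 616 were called in the same direction under H2AZ siRNA and 493 were still 2-fold or more apart. In these 635 genes the log2 difference under H2AZ siRNA was a median of 0.958 times that under NT siRNA, with quartiles of 0.861 and 1.053. Since they were chosen on the NT libraries, a ratio a little under 1 is a description only. Across the 12668 genes both differences correlated at Pearson r = 0.944, where genes are not independent replicates.

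The change of the genotype difference itself was called for 1 gene, H2afz, which is 0.00789% of the genes tested. No gene was called with a negative change, and 1095 genes (8.64%) had an unadjusted p under 0.05. For 12279 genes (96.9%) the 95% interval of the change lay within 2-fold of RPKM + 1 in either direction, and for 11323 (89.4%) within 1.5-fold. In genes of low RPKM such an interval can hide a larger change of the RPKM itself. The estimate lay beyond 1.5-fold for 127 genes and beyond 2-fold for 23. The H2afz call did not hold in every setting. Its adjusted p was 0.1279 without WT NT replicate 1 and KO NT replicate 1, 0.0627 without WT NT replicate 1 alone and 0.0574 without WT NT replicate 2. It was 0.0562 without WT H2AZ replicate 1, 0.0679 without WT H2AZ replicate 2 and 0.0684 with no filter. Its estimate stayed between 0.66 and 0.76 in all settings run. With the replicate number as a block 2 genes were called, H2afz (0.72, limma, adjusted p = 0.0272) and Hnrnpa1l2-ps2.

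A further 1246 genes were called under NT siRNA only and 1092 under H2AZ siRNA only. Apart from H2afz, none of them had a called change, so they are not shown to differ between the siRNAs. Of the 1246, 1098 lay in the same direction under H2AZ siRNA, with a median absolute difference of 0.105 against 0.242 (log2) under NT siRNA. Of the 1092, 969 lay in the same direction under NT siRNA, with a median absolute difference of 0.241 under H2AZ siRNA and 0.107 under NT siRNA.

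**Figure D2:**
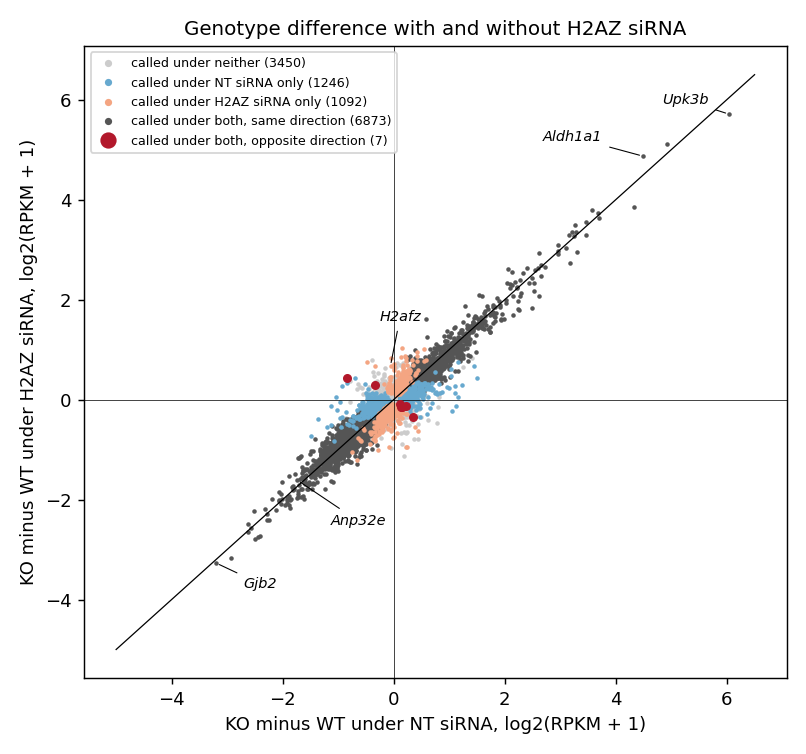
Log2 difference of KO minus WT under H2AZ siRNA (vertical axis) against that under NT siRNA (horizontal axis) for the 12668 genes tested, each point a gene, coloured by the condition in which it was called. Genes gather along the line of equal differences (r = 0.944), and H2afz, the only gene with a called change, lies above it at 0.67 against -0.06.

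Among the 12 named genes with the largest higher level in KO cells, several are known from mesothelium, the cell layer that lines the body cavities. Upk3b (ENSMUSG00000042985), a uroplakin used as a mesothelial marker, had 47.1, 52.0 and 55.2 RPKM in KO cells and no read in the 3 WT libraries with H2AZ siRNA. Against a floor of 3 reads over the WT group this is at least 4661-fold higher, and the fitted difference was 5.71 ± 0.06 (log2, SE, limma, adjusted p = 1.6e-13). Its partner uroplakin Upk1b had 31.4, 34.1 and 35.4 RPKM in KO cells and no read in WT cells, at least 2298-fold higher. Gpm6a, a membrane glycoprotein best known from neurons, had 9.68, 11.5 and 12.3 RPKM in KO cells, against 0.0141, 0.0145 and 0.0563 RPKM in WT cells (difference 3.56). Podxl, a sialomucin of podocytes and mesothelium, had 14.4, 15.4 and 16.5 RPKM in KO cells, against 0.111, 0.137 and 0.171 RPKM in WT cells (difference 3.85). In all 4 genes the KO libraries lay far above every WT library.

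The same list held genes of secreted factors and of retinoid metabolism. Aldh1a1, a dehydrogenase that makes retinoic acid, had 28.0, 30.9 and 29.1 RPKM in KO cells, against 0.0229, 0.0353 and 0.061 RPKM in WT cells, a difference of 4.87 ± 0.06 (log2, SE, limma, adjusted p = 1.6e-13). Igfbp6, a binding protein that prefers IGF2, had 22.8, 26.9 and 26.0 RPKM in KO cells, against 1.08, 0.978 and 0.845 RPKM in WT cells (difference 3.74). The heparin-binding growth factor gene Ptn had 14.3, 15.2 and 16.9 RPKM in KO cells, against 0.244, 0.335 and 0.387 RPKM in WT cells (difference 3.63). The other named higher genes were Bex2, Trbc2, Chchd10, Lrrn4 and Tspan8, with differences of 3.29 to 3.49. None of their KO and WT libraries overlapped, which the rule for naming them required.

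The named genes with the largest lower level in KO cells included several of secreted and cell-contact proteins. Gjb2 (ENSMUSG00000046352), a connexin of gap junctions, had 3.04, 2.34 and 3.07 RPKM in KO cells, against 36.3, 34.7 and 36.4 RPKM in WT cells, a difference of -3.27 ± 0.09 (log2, SE, limma, adjusted p = 2.3e-10). Glipr1, a secreted or membrane protein of the CAP superfamily, had 1.96, 1.85 and 2.17 RPKM in KO cells, against 29.1, 24.8 and 23.5 RPKM in WT cells (difference -3.16). Plac9a had 2.47, 3.16 and 2.69 RPKM in KO cells, against 25.7, 24.6 and 25.01 RPKM in WT cells (difference -2.79). Plac9b, at -2.75, is a near-identical copy of Plac9a, so these 2 values may rest on shared reads.

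Thbs1, which encodes the matricellular thrombospondin 1, was the most abundant of those described and had 131, 118 and 109 RPKM in KO cells, against 653, 646 and 612 RPKM in WT cells (difference -2.41). Ptgs2, the inducible prostaglandin synthase, had 23.6, 19.3 and 16.4 RPKM in KO cells, against 103.4, 89.2 and 93.9 RPKM in WT cells (difference -2.23). Tll1, a protease of the BMP1 family, Tnfrsf11b, which encodes osteoprotegerin, and Phf11d were lower by differences of -2.66 to -2.17. For the named genes of both directions the difference under NT siRNA had the same sign and was called.

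**Figure D3:**
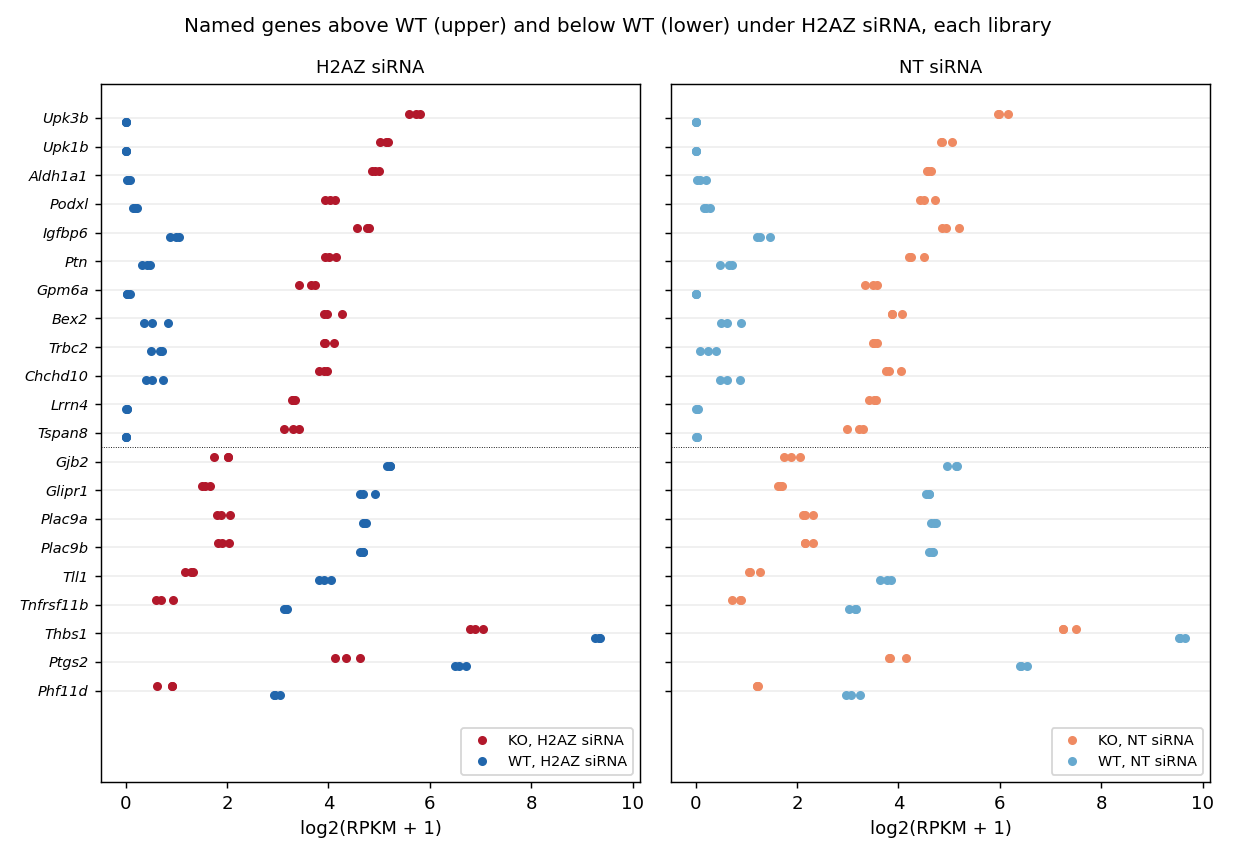
Log2(RPKM + 1) in every library for the 12 named higher genes (top) and the named lower genes described here (bottom), in a panel for H2AZ siRNA and a panel for NT siRNA, each point a library and KO points just above WT points. The higher genes reach up to 55.2 RPKM (Upk3b) in KO cells, and the lower genes up to 653 RPKM (Thbs1) in WT cells, with no overlap of the genotypes under H2AZ siRNA in any gene shown.

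Markers of other cell types were read beside these genes, and lists were compared with all genes tested (20.2% higher, 42.7% lower, median -0.121). After median centring the shares over all genes were 31.9% higher and 31.0% lower. Of 19 mesothelial markers, 15 passed the filter, 13 were higher and 2 lower in KO cells under H2AZ siRNA, with a median of 2.22. Under NT siRNA 13 were higher and 1 lower, with a median of 2.23. Wt1, a transcription factor of mesothelium and kidney, had 4.03, 4.06 and 4.01 RPKM in KO cells and no read in WT cells. Msln, the mesothelin gene, had 13.9, 14.1 and 12.7 RPKM in KO cells, against 6.02, 6.11 and 5.97 RPKM in WT cells. The 2 lower members were Igfbp2, an IGF binding protein, at -1.16, and the T-box gene Tbx18 at -0.38. The markers summed to 277.9 to 301.1 RPKM in KO cells and 102.2 to 116.9 RPKM in WT cells with H2AZ siRNA, and Tcf21 was under 0.1 RPKM in every library. In bulk RNA, more cells of a type and more RNA per cell cannot be told apart, and the part of these markers in the other differences was not tested.

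Fibroblast markers were abundant in both genotypes. The 12 fibroblast markers that passed the filter, of 14, summed to 2223 to 2414 RPKM in KO cells and 1554 to 1568 RPKM in WT cells with H2AZ siRNA. Of these, 7 were higher and none lower in KO cells, and Dcn, the proteoglycan decorin, led them with 18.2, 23.6 and 29.7 RPKM in KO cells, against 1.15, 1.89 and 1.59 RPKM in WT cells. Defining markers of other types were under 0.1 RPKM in every library, among them Pecam1 and Cdh5 of endothelium, Ptprc and Adgre1 of macrophages, Myod1 and Pax7 of skeletal muscle, Krt5 and Esrp1 of epithelium and Pou5f1 of pluripotent cells. Other members of these lists were expressed and differed. Of 14 epithelial markers 4 passed the filter, 3 of them keratins that the mesothelial list also holds and that were higher in KO cells, and the list summed to 49.4 to 56.8 RPKM in KO cells against 19.1 to 19.9 RPKM in WT cells with H2AZ siRNA. Cldn3, a tight-junction protein, was the epithelial marker that fell (-1.27). Of 11 adipocyte markers 5 passed, with 4 higher, among them Lpl, lipoprotein lipase, at 1.80, and Plin2, a lipid-droplet coat protein, lower at -0.76, while the sums were 35.0 to 37.1 RPKM in KO cells and 47.7 to 50.3 RPKM in WT cells. Of 12 skeletal-muscle markers only Acta1, skeletal alpha-actin, passed, and it fell by 1.39. The pluripotency list had Sox2 alone of 9, which fell by 1.17 and is also in the neural list. Of 13 chondrocyte and bone markers 3 passed, with Sox9 higher, Spp1 lower and 1 not called. The list summed to 318 to 392 RPKM in KO cells and 1147 to 1299 RPKM in WT cells. Nearly all of this was Spp1, the secreted phosphoprotein osteopontin (difference -1.85), so the sum does not describe the other members. Endothelial markers summed to 3.29 to 3.44 RPKM in KO cells and 2.51 to 2.96 RPKM in WT cells, macrophage markers to 4.19 to 4.43 RPKM and 5.65 to 6.87 RPKM, and neural and glial markers to 21.1 to 24.0 RPKM and 23.8 to 23.9 RPKM. The part of these markers in the other differences was not tested.

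Retinoic acid genes were mostly higher in KO cells. Of 14 tested of 19 listed, 12 were higher and 2 lower, with a median of 0.64, and under NT siRNA 12 were higher and 1 lower, with a median of 0.63. Crabp1, a cytosolic carrier of retinoic acid, had 241, 198 and 219 RPKM in KO cells, against 24.1, 25.7 and 24.0 RPKM in WT cells with H2AZ siRNA (difference 3.10). Its paralog Crabp2, which delivers retinoic acid to nuclear receptors, had 56.9, 58.5 and 63.6 RPKM in KO cells, against 9.21, 9.60 and 9.31 RPKM in WT cells (difference 2.55). Rbp4, the retinol carrier of blood, and Rdh10, which turns retinol into retinal, fell by 1.40 and 0.53 (log2).

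Interferon-stimulated genes, which code for antiviral and antigen-presenting proteins, were mostly lower in KO cells under H2AZ siRNA. Of 47 tested of 54 listed, 35 were lower and 2 higher, with a median of -0.49, and 31 were lower and 4 higher after median centring. Under NT siRNA 37 were lower and 1 higher, with a median of -0.41. Irgm1, a GTPase that acts on vacuoles of intracellular microbes, had 8.89, 8.40 and 8.37 RPKM in KO cells, against 22.8, 21.5 and 21.9 RPKM in WT cells (difference -1.27). Isg15, a ubiquitin-like protein, had 23.0, 15.9 and 20.5 RPKM in KO cells, against 42.8, 48.2 and 41.2 RPKM in WT cells (difference -1.13). Rtp4 and Trim30a fell by 1.25 and 1.16 (log2). The 2 higher members were Dhx58, whose call was lost without KO H2AZ replicate 1 (limma, adjusted p = 0.0602), and the chemokine gene Cxcl10.

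Targets of p53 were lower in 19 and higher in 1 of 32 tested, with a median of -0.30, and after median centring lower in 16 and higher in 8. Ccng1, a cyclin gene induced by p53, had 93.8, 90.3 and 95.8 RPKM in KO cells, against 208, 191 and 214 RPKM in WT cells with H2AZ siRNA (difference -1.12). Pmaip1, a death-promoting BH3 protein, fell by 1.28 and Trp53inp1 by 1.06 (log2). Cdkn1a, the cell-cycle inhibitor p21, was not among them, with 64.7, 57.6 and 58.3 RPKM in KO cells and 59.9, 58.0 and 55.2 RPKM in WT cells with H2AZ siRNA. These ranges overlap, and the difference of 0.06 was not called (limma, adjusted p = 0.3648), although median centring brought it to 0.19 and called it (adjusted p = 0.0209). In both genotypes Cdkn1a was about as far above its NT siRNA level, by 1.05 in KO cells and 0.95 in WT cells (log2, limma, adjusted p = 9.4e-07 and 3.1e-06). The siRNA raised 6.56% of all genes in KO cells and 4.88% in WT cells.

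Genes of mitosis and G2 were lower in 27 and higher in 2 of 41, with a median of -0.20, against 29 and 2 with a median of -0.33 under NT siRNA. After median centring 17 were lower and 8 higher under H2AZ siRNA. Nusap1, a spindle protein, had 7.51, 7.65 and 7.60 RPKM in KO cells, against 17.4, 14.3 and 17.9 RPKM in WT cells (difference -1.02). Plk4, the kinase of centriole duplication, and Bub1, a spindle checkpoint kinase, fell by 0.98 and 0.81 (log2). Cdc25b, a phosphatase that starts mitosis, rose by 0.50. DNA replication and S-phase genes were higher in 18 and lower in 15 of 46, with a median of 0.04, and after median centring in 25 and 10, with a median of 0.17.

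Contractile genes of smooth muscle and myofibroblasts were lower in 13 and higher in 1 of 16 tested, with a median of -0.60 under H2AZ siRNA and -0.64 under NT siRNA. Acta2, smooth-muscle actin, had 705, 686 and 594 RPKM in KO cells, against 1212, 1164 and 1124 RPKM in WT cells with H2AZ siRNA (difference -0.82). Cnn1, which encodes calponin, had 32.5, 30.5 and 26.8 RPKM in KO cells, against 128, 123 and 119 RPKM in WT cells (difference -2.01). Lmod1, an actin nucleator, and Myl9, a myosin light chain, fell by 1.66 and 1.33 (log2). Mylk, the myosin light chain kinase gene, was the member that rose, by 0.41.

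Glycolysis and hypoxia genes were higher in 20 and lower in 7 of 34 tested, with a median of 0.29, and in 23 and 1 after median centring. Egln3, an oxygen-sensing prolyl hydroxylase, had 4.43, 4.09 and 4.87 RPKM in KO cells, against 0.751, 0.917 and 0.918 RPKM in WT cells with H2AZ siRNA (difference 1.55). Gapdh and Gpi1, enzymes of glycolysis, rose by 0.69 and 0.62, and Pfkp, the platelet form of phosphofructokinase, fell by 0.80 (log2). NRF2 targets and antioxidant genes were higher in 12 and lower in 3 of 22 tested, with a median of 0.17, and after median centring in 16 and 2. The glutathione transferases Gsta4 and Gstm1 rose by 2.53 and 1.67, and Sod3, the extracellular superoxide dismutase, fell by 1.71.

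Genes of H2A.Z deposition and removal were called at shares near those of all genes. Of 27, 5 were higher and 11 lower (18.5% and 40.7%, against 20.2% and 42.7% of all genes tested), with a median of -0.10 beside -0.121 over all genes, and after median centring 9 were higher and 6 lower. Vps72, the H2A.Z-binding YL1 subunit of SRCAP and TIP60, and Ino80b, a subunit of INO80, rose by 0.30 and 0.32, and Epc2, a TIP60-type complex subunit, fell by 0.74 (log2). Among 8 other replication-independent histone genes tested, 6 were higher and 1 lower. H2afx, the variant phosphorylated at DNA breaks, had 124, 129 and 111 RPKM in KO cells, against 72.8, 71.2 and 73.0 RPKM in WT cells (difference 0.73), H2afj and the macroH2A gene H2afy2 rose by 0.53 and 0.51, and the linker histone gene H1f0 fell by 0.36.

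**Figure D4:**
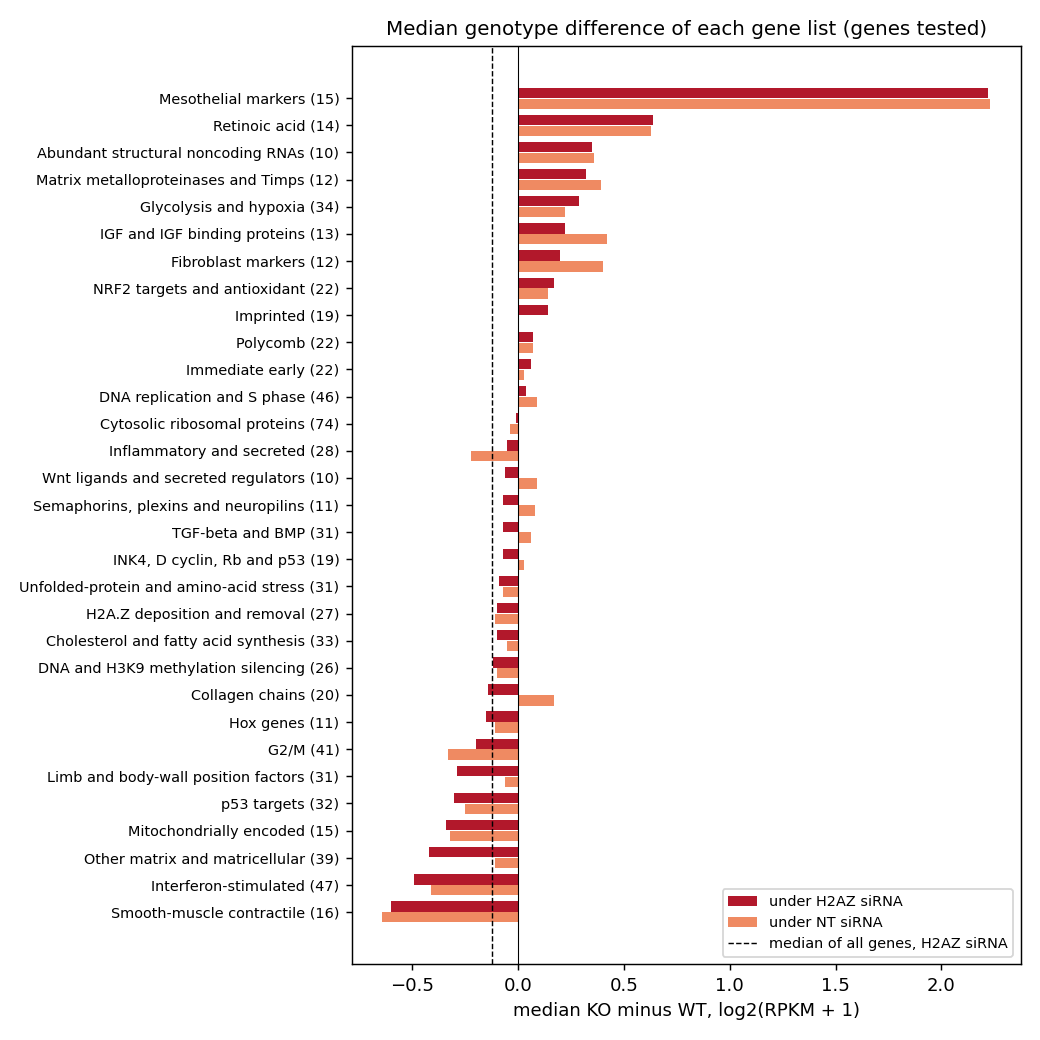
Median log2 difference of KO minus WT over the tested members of each gene list with at least 10 tested members (number in brackets), as bars under H2AZ siRNA and NT siRNA, with a dashed line at the median of all 12668 genes under H2AZ siRNA (-0.121). Medians of the lists shown run, under H2AZ siRNA, from -0.60 for contractile genes to 2.22 for mesothelial markers.

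In the matrix lists no change of the genotype difference was called. Of 20 collagen chains tested, 6 were higher and 9 lower under H2AZ siRNA, with a median of -0.14, against 8 and 8 under NT siRNA, with a median of 0.17. The change had an unadjusted p under 0.05 in 7 of the 20, all negative, but no adjusted p under 0.05. Over all genes tested the share was 8.64%. After median centring the median change of the list was -0.12, against -0.15 before. Of 39 other matrix genes, 8 had such a change, all negative, with list medians of -0.42 under H2AZ siRNA and -0.11 under NT siRNA. In the mitosis and G2 list 5 of 41 had such a change, all positive. These lists were singled out after their values were seen.

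The collagen VI chains, which assemble into beaded filaments and were also picked after their values were seen, show the pattern. Col6a3 had 28.9, 27.7 and 34.3 RPKM in KO cells and 33.8, 35.0 and 35.1 RPKM in WT cells with H2AZ siRNA. With NT siRNA it had 35.2, 29.1 and 28.5 RPKM in KO cells and 26.2, 24.0 and 24.6 RPKM in WT cells. The KO libraries lay above the WT libraries with NT siRNA only, and with H2AZ siRNA the ranges overlap. The change was -0.49, with a 95% interval of -0.76 to -0.22 (limma, unadjusted p = 0.0021, adjusted p = 0.3171). For Col6a1 and Col6a2 it was -0.40 and -0.38 (limma, unadjusted p = 0.0133 and 0.0058), and neither passed the adjustment.

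Several other collagens and matrix genes kept a called difference under both siRNAs. Col10a1, the collagen of hypertrophic cartilage, Col5a3 and Col5a2 fell by 1.80, 1.5 and 1.35 (log2) under H2AZ siRNA. Col4a6 and Col4a5, neighbouring chains of basement membranes, rose by 1.31 and 0.82, and Col18a1 by 0.88 against 1.24 under NT siRNA. Efemp1, a fibulin, had 41.4, 39.1 and 43.9 RPKM in KO cells, against 5.47, 5.65 and 6.01 RPKM in WT cells (difference 2.66). Spp1, the secreted phosphoprotein osteopontin, had 316, 331 and 390 RPKM in KO cells, against 1296, 1145 and 1282 RPKM in WT cells (difference -1.85). Among metalloproteinases and their inhibitors, 6 were higher and 5 lower of 12 tested under H2AZ siRNA, and after median centring 6 and 2. Under NT siRNA 7 were higher and 2 lower. Only 2 members were called lower under both siRNAs, and 6 higher under both. The collagenase gene Mmp13 had 21.0, 21.3 and 27.0 RPKM in KO cells, against 4.60, 4.57 and 4.76 RPKM in WT cells (difference 2.09), Mmp3 and Mmp19 rose by 1.85 and 1.47, and the inhibitor gene Timp1 fell by 0.82.

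Imprinted genes, expressed from the copy of a single parent in at least some tissues, included 5 higher and 7 lower of 19 tested. These were 26.3% and 36.8%, against 20.2% and 42.7% of all genes, and the list median was 0.14. After median centring 11 were higher and 5 lower (57.9% and 26.3%, against 31.9% and 31.0% of all genes). The split between higher and lower thus moved with the scaling. Cdkn1c, an inhibitor of cell division expressed from the maternal copy, had 12.4, 11.4 and 10.3 RPKM in KO cells, against 0.487, 0.526 and 0.487 RPKM in WT cells with H2AZ siRNA (difference 3.04). Nnat and Peg3, expressed from the paternal copy, rose by 1.36 and 1.07, and Peg10, also paternal, and Ube3a fell by 0.86 and 0.91 (log2).

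Transcription factors of limb and body-wall position differed in both directions, with 10 higher and 16 lower of 31 tested. Tbx4, a factor of the hindlimb and lung, had 5.81, 4.69 and 5.42 RPKM in KO cells, against 0.159, 0.263 and 0.0645 RPKM in WT cells with H2AZ siRNA (difference 2.44). Tbx5, the factor of the forelimb and heart, went the other way, with 0.428, 0.430 and 0.328 RPKM in KO cells, against 1.89, 2.35 and 2.56 RPKM in WT cells (difference -1.22). Gata4 and Gata6, factors of heart and mesothelium among other tissues, rose by 1.71 and 1.33, and Tbx20 and Msx2 fell by 1.54 and 1.29. Of 11 Hox genes tested, 3 were higher and 4 lower (27.3% and 36.4%, against 20.2% and 42.7% of all genes), with a median of -0.15. Hoxb9, a posterior Hox gene, rose by 1.27, while Hoxd13, Hoxd10 and Hoxa9 were among the lower members. Tbx4, Tbx5, Gata4, Gata6, Tbx20, Msx2 and Hoxb9 kept these directions as calls under NT siRNA.

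Called differences with opposite signs under the 2 siRNAs were rare, 7 of 12668 genes, against 6873 with the same sign, and 12 genes with the replicate block. They are named here because of their values, and no change was called in any of them. Cxcl10, a chemokine induced by interferon, had 7.97, 6.65 and 7.02 RPKM in KO cells and 6.29, 5.25 and 5.52 RPKM in WT cells with H2AZ siRNA. With NT siRNA it had 7.72, 7.66 and 8.50 RPKM in KO cells and 10.4, 10.1 and 10.7 RPKM in WT cells. The WT libraries with H2AZ siRNA lay below all WT libraries with NT siRNA, and the change was 0.64, with a 95% interval of 0.42 to 0.87 (limma, adjusted p = 0.1397). The number of such genes was 16 without WT NT replicate 1, 11 without KO H2AZ replicate 3, and 4 without WT H2AZ replicate 1 or without WT H2AZ replicate 2. The others were Scarna3b, Mmp14, Sulf2, B4gat1, Tecr and Rps12-ps15. After median centring the differences of Mmp14, Sulf2, B4gat1 and Tecr under H2AZ siRNA were -0.01, -0.02, -0.02 and 0.03 and no longer called.

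A few abundant genes, also picked after their values were seen, came near the threshold for a changed difference. Mt1, a metal-binding metallothionein, had 273, 272 and 281 RPKM in KO cells and 161, 162 and 160 RPKM in WT cells with H2AZ siRNA. With NT siRNA it had 251, 254 and 256 RPKM in KO cells and 105, 109 and 118 RPKM in WT cells. KO cells were higher under both siRNAs, by 0.77 and 1.19 (log2), and the change of -0.42 had an adjusted p of 0.084 in limma. Syngr3, a synaptic vesicle protein, was lower in KO cells by 1.28 under H2AZ siRNA and by 0.66 under NT siRNA (limma, change -0.63, adjusted p = 0.1333). Gja1, the connexin of fibroblast gap junctions, had 110, 103 and 109 RPKM in KO cells and 118, 116 and 123 RPKM in WT cells with H2AZ siRNA. With NT siRNA it had 82.8, 73.9 and 77.8 RPKM in KO cells and 124, 115 and 112 RPKM in WT cells. Its change was 0.42 (limma, adjusted p = 0.1559) and was called after median centring and with the structural RNAs left out of the total, each of which called 3 genes (0.0237%). Mt1 was called without WT NT replicate 3, and Syngr3 without KO H2AZ replicate 3.

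The same genotypes were also sequenced after DMSO or decitabine, an inhibitor of DNA methyltransferases, in 2 KO and 2 WT libraries with DMSO and 3 and 3 with decitabine. That table holds FPKM and was normalized separately, so its calls and differences are given as descriptions beside those under the siRNAs, with no test between the tables. In it 42.4% of 16434 genes were called under DMSO and 22.7% under decitabine. Of the 6873 genes kept under both siRNAs, 6657 were tested there. Under DMSO 2088 were called in the same and 1092 in the opposite direction, and under decitabine 1387 and 433. A call in the same direction in all 4 conditions was found for 1002 genes, 392 higher and 610 lower in KO cells. Genes without a call under DMSO or decitabine are not counted there, whatever their direction. Of the kept genes with a 2-fold difference under H2AZ siRNA, 558 were tested. Under DMSO 347 of these were called in the same and 51 in the opposite direction, and under decitabine 308 and 25.

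Upk3b, Upk1b, Aldh1a1, Igfbp6, Gpm6a, Podxl and Tbx4 were higher and Gjb2, Plac9a, Thbs1, Tbx5 and Sod3 lower in KO cells in all 4 conditions. Not all leading genes were. Cdkn1c was not called under DMSO (limma, difference -0.28, adjusted p = 0.3111). Cdkn1a, which was not called under H2AZ siRNA, fell by 2.11 under DMSO (log2, limma, adjusted p = 5.3e-06). Pmaip1 and Spp1, both lower under H2AZ siRNA, rose under DMSO by 0.85 and 0.84.

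The genotype difference was uneven between chromosomes. On chromosome 17, 45.3% of 589 tested genes were higher and 21.9% lower in KO cells under H2AZ siRNA, with a median of 0.135. On chromosome 19, 45.3% of 422 were higher and 18.7% lower (median 0.142), and on chromosome 15, 43.6% of 473 were higher and 20.1% lower (median 0.101). Chromosome 14 lay at the other end, with 9.3% of 420 higher and 65.5% lower (median -0.289). Under NT siRNA the medians were 0.160, 0.173, 0.169 and -0.313 for chromosomes 17, 19, 15 and 14. In the DMSO libraries they were -0.024, 0.075, 0.025 and -0.112, beside -0.037 over all genes. After median centring the H2AZ siRNA medians of the 4 chromosomes were 0.264, 0.270, 0.229 and -0.161. Centring moves every gene of a library by the same amount, so it could not change the order of the chromosomes.

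**Figure D5:**
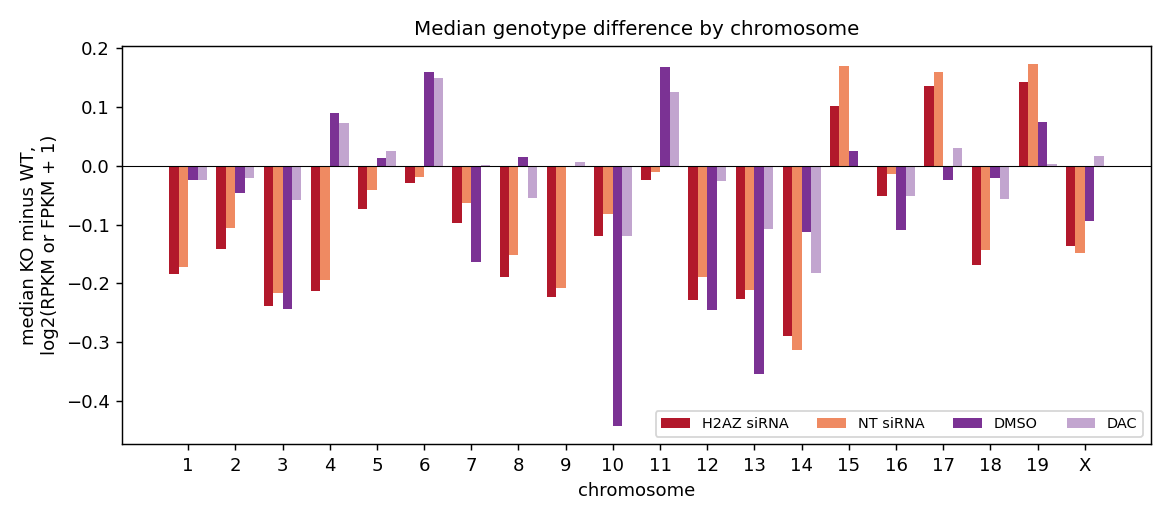
Median log2 difference of KO minus WT over the tested genes of each autosome and the X chromosome, as bars under H2AZ siRNA and NT siRNA (RPKM) and under DMSO and decitabine (DAC, FPKM). Under both siRNAs chromosomes 15, 17 and 19 lie above 0 and chromosome 14 lies lowest, at -0.289 and -0.313.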

How the data were processed

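The authors deposited RPKM values for 43432 Ensembl genes in 12 siRNA libraries and FPKM values in 10 DMSO or decitabine libraries. STAR, Bowtie2, deepTools and the mm10 assembly are named per the submitters' processing notes. Counter, annotation, strand setting and the treatment of multi-mapping reads are not given in the sources used. Solving the smallest steps between values gave library totals and whole reads within 0.01 for 100.0% of the 32935 siRNA-table genes above 0.

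Genes with at least 1 RPKM in at least 3 libraries were fitted together on log2(RPKM + 1) over the 4 groups with limma 3.58.1 (R 4.3.3), with an intensity trend. The FPKM table was fitted in the same way, with a minimum of 2 libraries. Contrasts were KO minus WT under each siRNA and the change between these, and calls required p under 0.05 after Benjamini-Hochberg adjustment over all genes of a contrast. The steps were tested on simulated data. Other steps used Python 3.11.15, numpy 2.4.6, pandas 2.3.3 and matplotlib 3.10.9. Positions in GRCm38.p6 were found for 96.2% of the genes tested, and 8363 of them have a RefSeq promoter entry.

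The comparison, its gene lists and its rules were chosen with earlier results of these data known. Named genes were the 12 higher and 12 lower with the largest called difference, a mean of at least 5 RPKM in the higher group and no overlap of the 3 KO and 3 WT libraries, without predicted genes, clones, pseudogenes, small RNAs and Y-linked genes. Up to 3 higher and 3 lower called members of each list were added, beside Anp32e, H2afz, H2afv, Xist and Y-linked genes. Of the 12 lower genes, 3 are not reported here. Lists are described by counts and medians, without a test. Deviations of same-numbered libraries correlated at 0.037 to 0.074 between KO and WT with H2AZ siRNA, 0.023 to 0.319 between KO and WT with NT siRNA, 0.144 to 0.270 between H2AZ and NT siRNA in KO and -0.089 to 0.013 in WT cells. Every pair was thus over 0.1 between the siRNAs in KO cells and not elsewhere. The main fit has no block, and the blocked fit is given beside the change between siRNAs. That block gives all 4 groups the same replicate effect, so neither fit models a pairing within KO cells alone. In limma 1350 genes had an unadjusted p under 0.05 for the change with the block, against 1095 without it. Alternatives were another pseudocount, filter, scaling or model, a replicate block, a 2-fold minimum and leaving out libraries. The 31 CUT&Tag samples were not analysed here.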

Additional observations from a re-analysis of the deposited data

Results flagged for a closer look

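H2afz stood out because its genotype difference changed between the siRNAs by the test of the change itself, 0.72 on the log2 scale (limma, adjusted p = 0.0122). It was 0.67 higher in KO cells under H2AZ siRNA and -0.06 under NT siRNA, and the siRNA left 14.4% of its NT level in KO cells and 8.53% in WT cells. All 3 KO libraries with H2AZ siRNA lay above all 3 WT libraries with H2AZ siRNA. The RPKM of Gm8203 moved in the same way, with a change of 0.71 (limma, adjusted p = 0.0522).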

How the results depend on the processing

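The direction of the named genes was kept in nearly all settings. Over 23 settings, 9773 values for 218 genes kept their direction and their side of the threshold, 128 were no longer called and 9 were newly called. Me1, an NADP-linked malic enzyme, turned from -0.11 to 0.02 after median centring and 0.01 with structural RNAs out of the total. Median centring gave 4037 higher genes under H2AZ siRNA, and a filter at 5 RPKM, which tests fewer genes, 1985 higher under NT siRNA. A 2-fold minimum left 230 higher and 351 lower genes under H2AZ siRNA, 256 and 379 under NT siRNA, 493 in the same direction under both and 0 opposite or with a changed difference. Genes with a positive change numbered 2 with the filter at 5, limma-voom or the replicate block, 3 with median centring or structural RNAs out of the total, and 0 with no filter or without WT NT replicate 1 and KO NT replicate 1. Opposite calls were 4 with limma-voom, 12 with median centring, the replicate block or structural RNAs out of the total, and 16 without WT NT replicate 1 and KO NT replicate 1. Leaving out 1 library at a time gave 2242 to 2609 higher and 4633 to 5517 lower genes under H2AZ siRNA, 2740 to 3004 and 4436 to 5415 under NT siRNA, 6283 to 6990 in the same direction, 4 to 16 opposite, and 0 to 2 positive and 0 to 1 negative changes. Where no value shows the cause, the cause was not tested. Under the replicate block, H2afz kept its changed difference (0.72, limma, adjusted p = 0.0272). Its call was lost with no filter (0.72, limma, adjusted p = 0.0684) and when some WT libraries were left out, as given above. The sex of the cells limits all comparisons of KO with WT. Unequal H2A.Z transcript levels limit those that use the H2AZ siRNA libraries, and near-identical copies limit the genes named with them.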

Other observations

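Further lists were read under H2AZ siRNA against the 20.2% higher and 42.7% lower of all genes. Counts after median centring are to be read against 31.9% higher and 31.0% lower. IGF genes and IGF binding proteins were higher in 7 and lower in 4 of 13 tested. Igfbp3, the main carrier of IGF in blood, had 5.24, 4.91 and 6.23 RPKM in KO cells, against 0.225, 0.239 and 0.230 RPKM in WT cells (difference 2.39), and Igfbp5 rose by 1.98 (log2). Wnt ligands and secreted regulators split evenly, with 5 higher and 5 lower of 10 tested. Dkk3, of the Dickkopf family, fell to 2.02, 2.16 and 2.94 RPKM in KO cells, against 12.8, 13.8 and 13.9 RPKM in WT cells (difference -2.11), and Sfrp1, which binds Wnt proteins, rose by 1.12.

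Immediate early genes were higher in 11 and lower in 8 of 22 tested, and after median centring in 11 and 4. Inflammatory and secreted genes were higher in 8 and lower in 12 of 28, led by Ptgis, the prostacyclin synthase, at 2.14 and Saa3, a serum amyloid A protein, at 1.86. Cholesterol and fatty acid synthesis genes were higher in 9 and lower in 15 of 33, and after median centring in 13 and 11. Genes of DNA and H3K9 methylation silencing were higher in 6 and lower in 9 of 26. Polycomb genes were higher in 8 and lower in 6 of 22, and after median centring in 13 and 5. Of 74 cytosolic ribosomal protein genes 18 were higher and 22 lower, and after median centring 30 and 11. Mitochondrially encoded genes were higher in 1 and lower in 9 of 15.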
